A study of Mus musculus with 7 samples.

Results

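Genes of the interferon response and of class I antigen presentation were read in RNA-seq libraries of sorted β-cells. The 40 genes were chosen by symbol, and all 40 were found among the 35013 symbols of the count table. They formed an 11-gene group of class I antigen presentation (B2m, H2-K1, H2-D1, H2-T23, Tap1, Tap2, Tapbp, Psmb8, Psmb9, Psmb10 and Nlrc5) and a 29-gene group of interferon-induced genes. The libraries came from 3 groups of mice, with 1 library per mouse. The 2 Aldh1a3 KO_db/db mice, called KO_db/db here, were homozygous for floxed Aldh1a3 (fl/fl) and for the Lepr db allele. The 2 db/db mice had the same Lepr genotype but were fl/+ at Aldh1a3, and the 3 lean db/+ mice were fl/+ at Aldh1a3 and heterozygous at Lepr. All 3 groups carried the RIP-Cre Herr transgene, a Cre recombinase that the rat insulin promoter drives in β-cells, and 1 floxed allele of the tdT reporter (tdT fl/+). The line with the floxed, Cre and reporter alleles was backcrossed onto B6.BKS(D)-Lepr db mice, and the number of generations is not stated. The mice were adults that were fed chow and fasted before islets were isolated. Without a working leptin receptor, Lepr db/db animals grow obese and diabetic, and Aldh1a3 is an aldehyde dehydrogenase that accumulates in their failing β-cells.

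Class I molecules show peptides from inside a cell to CD8 T cells. A heavy chain (H2-K1 or H2-D1 in these mice) pairs with β2-microglobulin, the product of B2m, and takes up peptides that the proteasome cuts, the Tap1 and Tap2 transporter carries into the endoplasmic reticulum and tapasin (Tapbp) helps to load. Interferons induce a proteasome with exchanged catalytic subunits (Psmb8, Psmb9 and Psmb10), and NLRC5 activates transcription of class I genes. Type I interferons act through the receptor of Ifnar1 and Ifnar2 and factors such as STAT2 and IRF9 at the interferon-stimulated response element (ISRE), while the γ-activated sequence (GAS) is an element of the response to interferon-γ. In islets, class I molecules on β-cells are best known as the target of T cells in autoimmune diabetes, which is not the disease of db/db mice.

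Promoters of called genes and of a heavy chain gene are shown first, because interferon factors act through elements in such regions. RefSeq windows of 300 bases around annotated starts (GRCm38.p6) were given for 32 of the 40 genes, 9 of class I presentation and 23 interferon-induced. The letters GAAANNGAAA, the core of an ISRE, were searched on both strands together with TTCNNNGAA, the GAS palindrome, and matches of either may overlap. The ISRE core lay in the windows of 15 of the 23 interferon-induced genes (65.2%) and 2 of the 9 class I genes (22.2%), against 3.99% of all 27025 genes with a window. The GAS letters lay in 7 of 23 (30.4%) and 1 of 9 (11.1%), against 9.55% of all genes. The class I genes with an ISRE core were B2m and H2-T23, and the one with GAS letters was Psmb8. The windows below belong to genes whose values follow, 5′ to 3′ on the strand of the gene, with ISRE core and GAS matches in capitals. B2m (chr2:122147437-122147736, plus strand) held its ISRE core at position -139, counted from the annotated start as 0. H2-K1 (chr17:34000298-34000597, minus strand) and Psmb9 (chr17:34187281-34187580, minus strand) held no exact match to either set of letters. Psmb8 (chr17:34197945-34198244, plus strand) held GAS letters at -97. Oas1a (chr5:120907476-120907775, minus strand) held overlapping ISRE cores at -20 and -14 and GAS letters at -98, and Ddx58 (chr4:40239776-40240075, minus strand) held an ISRE core at 2. A match of letters does not show that a factor was bound. A lack of an exact match does not show that an element is absent, since elements that differ from these letters were not searched.
B2m: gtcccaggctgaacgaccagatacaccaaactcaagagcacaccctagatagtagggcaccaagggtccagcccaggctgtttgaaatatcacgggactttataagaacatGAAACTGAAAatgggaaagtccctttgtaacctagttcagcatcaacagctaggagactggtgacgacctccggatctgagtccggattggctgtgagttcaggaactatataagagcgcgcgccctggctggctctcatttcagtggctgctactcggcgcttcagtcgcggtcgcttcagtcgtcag
H2-K1: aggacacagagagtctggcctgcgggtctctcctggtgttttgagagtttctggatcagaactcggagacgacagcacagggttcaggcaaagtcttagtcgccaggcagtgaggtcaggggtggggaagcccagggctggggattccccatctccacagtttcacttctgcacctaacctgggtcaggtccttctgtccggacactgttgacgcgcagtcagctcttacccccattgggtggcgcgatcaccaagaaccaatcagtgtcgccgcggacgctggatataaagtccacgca
Psmb8: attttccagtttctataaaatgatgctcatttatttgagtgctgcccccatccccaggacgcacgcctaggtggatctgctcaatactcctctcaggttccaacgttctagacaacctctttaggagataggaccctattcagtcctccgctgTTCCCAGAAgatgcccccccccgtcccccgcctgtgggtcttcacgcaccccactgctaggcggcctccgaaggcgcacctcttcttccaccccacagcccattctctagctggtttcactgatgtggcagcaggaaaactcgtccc
Psmb9: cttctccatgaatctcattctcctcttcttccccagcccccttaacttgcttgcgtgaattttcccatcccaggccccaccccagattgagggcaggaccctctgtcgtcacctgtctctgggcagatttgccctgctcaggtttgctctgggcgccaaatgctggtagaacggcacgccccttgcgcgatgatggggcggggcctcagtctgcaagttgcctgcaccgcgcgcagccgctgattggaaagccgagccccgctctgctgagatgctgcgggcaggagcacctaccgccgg
Oas1a: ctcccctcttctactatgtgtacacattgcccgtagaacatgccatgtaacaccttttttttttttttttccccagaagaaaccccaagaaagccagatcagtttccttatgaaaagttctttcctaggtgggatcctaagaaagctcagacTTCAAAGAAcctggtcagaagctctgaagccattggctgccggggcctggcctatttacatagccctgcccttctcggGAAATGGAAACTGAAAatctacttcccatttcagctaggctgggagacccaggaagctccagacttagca
Ddx58: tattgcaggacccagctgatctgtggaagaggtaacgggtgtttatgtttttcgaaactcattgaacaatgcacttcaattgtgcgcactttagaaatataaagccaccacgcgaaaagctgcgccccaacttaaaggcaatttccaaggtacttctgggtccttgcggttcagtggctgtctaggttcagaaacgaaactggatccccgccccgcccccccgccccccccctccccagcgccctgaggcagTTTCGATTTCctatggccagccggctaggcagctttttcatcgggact

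Psmb9 and Tap1 face away from each other on chromosome 17, so that 275 bases of the Psmb9 window above are also in the window of Tap1. Their GENCODE annotations overlap by 212 bases, and the sources used here do not say whether strand was used in counting. In all, 8 of the 11 class I genes lie on chromosome 17, and B2m lies on chromosome 2.

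Total counts ran from 27496645 to 35852785 per library, and levels are given as CPM, counts per 1000000 counts of a library after TMM scaling of the 7 libraries. At 3 counts, taken as the detection floor, a gene had 0.0717 to 0.123 CPM. The targeted gene Aldh1a3 was at 4.97 and 7.89 CPM in KO_db/db, 98.4 and 194 in db/db and 0.205, 0.0729 and 0.589 in db/+. Between KO_db/db and db/db its log2 fold change was -4.50 (adjusted p = 0.0445, edgeR). The first KO_db/db library stood apart through 41 genes of acinar cells, which took 17.5% of its counts, 1.97% in the second KO_db/db library and at most 0.0565% in the others. Where a result rests on a KO_db/db library, its value without that library is given. Each pair of groups was tested by edgeR's quasi-likelihood test over all genes, with Benjamini-Hochberg adjustment and a threshold of 0.05, and each standard error (SE) is that of the log2 fold change. In bulk libraries, fewer cells of a type and less RNA per cell cannot be told apart.

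Class I genes were the more abundant group. Of the 11, 3 averaged over 100 CPM across the 7 libraries (H2-K1, H2-D1 and Tapbp), and only Nlrc5 averaged under 1 CPM. Of the 29 interferon-induced genes none averaged over 100 CPM and 10 averaged under 1 CPM, among them Isg15, Cxcl10, Zbp1 and Ifit2. Per kilobase of the median annotated transcript, the order of levels in db/+ was H2-K1 (146 CPM per kilobase), H2-D1 (81.9), B2m (42.7), Tapbp (37.1) and H2-T23 (17.25). In db/db the order was H2-K1 (177), H2-D1 (138), Tapbp (31.5), H2-T23 (24.4) and B2m (12.8). The ranges of H2-K1 and H2-D1 overlapped within db/db, and those of B2m and Tapbp overlapped within db/+.

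**Figure D1:**
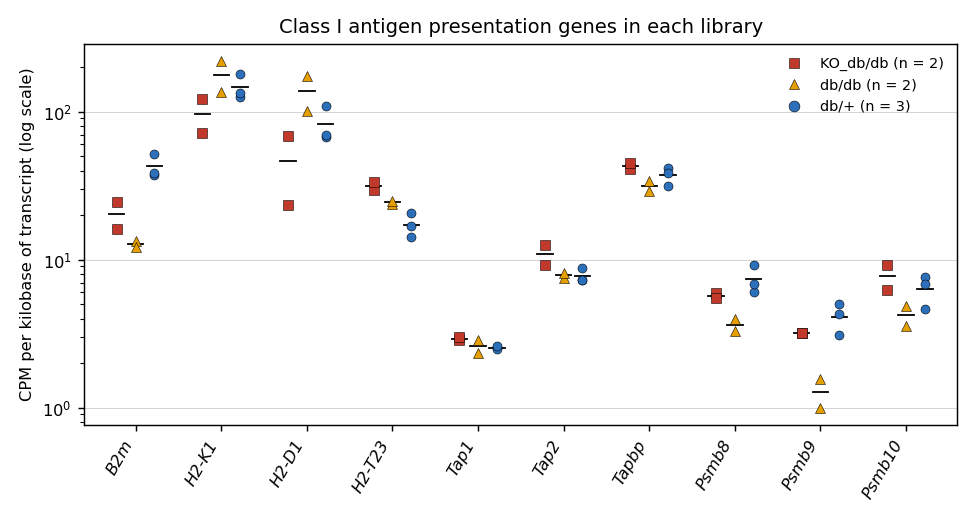
Levels of 10 class I antigen presentation genes, in CPM per kilobase of the median annotated transcript on a log scale, with 1 point per library and a line at the mean of each group. B2m, Psmb8 and Psmb9 were lower in both db/db libraries than in every db/+ library. H2-K1 was lowest in the KO_db/db libraries, and H2-D1 overlapped between KO_db/db and db/+. Nlrc5, at 0 to 0.208 CPM, is not drawn.

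The comparison of db/db with db/+ asks how the genes differ between diabetic and lean β-cells when Aldh1a3 is heterozygous. B2m, Psmb8 and Psmb9 of the class I group fell in db/db, whereas the heavy chains H2-K1 and H2-D1 and the transporter genes Tap1 and Tap2 did not pass the test. Among interferon-induced genes Oasl2, Oas1a, Parp14 and Gbp3 fell, and Ddx58 and Iigp1 rose. In all, 9 of the 35 tested members passed the threshold (2 higher and 7 lower), or 25.7%, where 37.8% of the 13406 genes tested passed (19.9% higher and 18.0% lower). DESeq2 called 13 members (3 higher and 10 lower) and 5634 genes. The median log2 fold change was -0.13 over 10 class I genes and -0.44 over 25 interferon-induced genes, against 0.01 over all genes tested. Groups did not overlap for 18 of the 35 members (4 above and 14 below), against 63.3% of all genes.

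B2m (ENSMUSG00000060802.8, chromosome 2, 122147686 to 122153083) had 11.6 and 10.4 CPM in db/db and 32.3, 44.7 and 33.2 CPM in db/+. Both db/db libraries lay below every db/+ library. The log2 fold change was -1.75 (SE 0.18, adjusted p = 0.00110, edgeR), and it stayed between -1.83 and -1.58 in 12 alternative fits, in each of which B2m was called. The heavy chain H2-K1 had 343 and 212 CPM in db/db and 280, 198 and 209 in db/+. Its log2 fold change was 0.26 (SE 0.24, adjusted p = 0.416, edgeR), and without db/db mouse 1 it turned to -0.11. H2-D1 had 369 and 213 CPM in db/db and 231, 141 and 145 in db/+, a log2 fold change of 0.74 (SE 0.29, adjusted p = 0.0875, edgeR; between 0.0127 and 0.702 over its alternatives). Both heavy chains overlapped between the groups. H2-T23, which encodes the nonclassical heavy chain Qa-1, had 35.2 and 36.6 CPM in db/db and 24.8, 30.4 and 20.98 in db/+ (log2 fold change 0.49, SE 0.16, adjusted p = 0.0544, edgeR). DESeq2 called both H2-D1 and H2-T23 higher in db/db.

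Reads of class I heavy chains are hard to assign among near-identical copies, so 13 heavy chain genes were also summed. The sum was 887 and 558 CPM in db/db and 741, 502 and 507 in db/+, and the groups overlapped. Per kilobase, H2-K1 and H2-D1 together stood at 29.3 and 19.5 times B2m in db/db and at 7.67, 3.71 and 5.24 times B2m in db/+. The ratios of the db/db libraries lay above all of db/+, with a difference of 2.17 on the log2 scale and an exact two-sided permutation p of 0.2, the smallest that 2 mice against 3 can give.

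Of the 3 catalytic subunits that interferons exchange 2 fell in db/db, and those they replace did not pass the test. Psmb8 (β5i) had 5.34 and 6.45 CPM in db/db and 9.82, 15.1 and 11.1 in db/+, a log2 fold change of -1.03 (SE 0.23, adjusted p = 0.0138, edgeR). Psmb9 (β1i) had 1.35 and 2.10 CPM in db/db and 5.77, 6.82 and 4.15 in db/+, a log2 fold change of -1.70 (SE 0.33, adjusted p = 0.00902, edgeR). Neither gene overlapped between the groups, and both were called in all 12 alternative fits. Psmb10 (β2i) overlapped, with 4.67 and 6.38 CPM in db/db and 6.09 to 9.95 in db/+, and was not called (log2 fold change -0.60, adjusted p = 0.122, edgeR). Their standard counterparts Psmb5, Psmb6 and Psmb7 had log2 fold changes of -0.13, -0.18 and -0.10, and neither edgeR nor DESeq2 called any of the 3 (0 of 3 at an unadjusted p under 0.05). Per kilobase, the 3 immunoproteasome subunits summed to 0.0443 and 0.0725 of the standard subunits in db/db and to 0.105, 0.120 and 0.0796 in db/+, without overlap (exact permutation p = 0.2, the smallest possible). Tap1, which shares a start region with Psmb9, had 6.55 and 7.93 CPM in db/db and 7.12, 6.89 and 7.27 in db/+ (log2 fold change 0.02, SE 0.17, adjusted p = 0.944, edgeR). The log2 fold changes of Tap2 and Tapbp were -0.01 and -0.25, neither of them called. Nlrc5 was not tested in any comparison, with 0 to 6 counts per library.

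**Figure D2:**
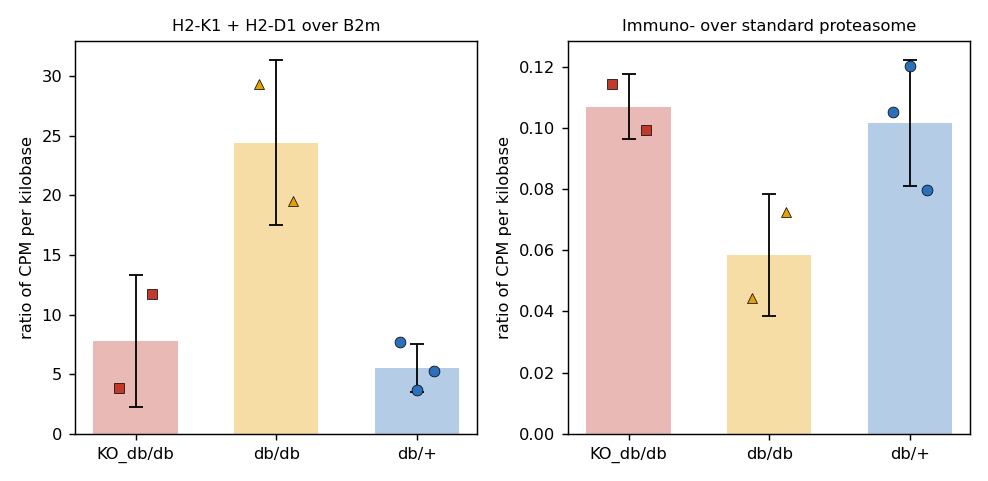
Ratios of CPM per kilobase in each library. On the left, H2-K1 and H2-D1 together over B2m, and on the right, Psmb8, Psmb9 and Psmb10 over Psmb5, Psmb6 and Psmb7. Bars show group means, error bars the SD (n = 2, 2 and 3) and points the libraries. The db/db libraries stood highest on the left (19.5 and 29.3) and lowest on the right (0.0443 and 0.0725).

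Among the transcription factors none was called in db/db against db/+ by edgeR, with 1 of 4 (Irf7) at an unadjusted p under 0.05 and called by DESeq2. Stat2 had 8.95 and 8.15 CPM in db/db and 6.71 to 8.86 in db/+ (log2 fold change 0.10, SE 0.18, adjusted p = 0.689, edgeR). Irf1, which is induced by interferon-γ, had 12.9 and 16.5 CPM in db/db and 13.7 to 19.4 in db/+ (-0.19, SE 0.20, adjusted p = 0.486, edgeR). Irf7, which amplifies type I interferon production, had 0.4403 and 0.502 CPM in db/db and 0.819, 1.86 and 1.42 in db/+. The groups did not overlap, and its log2 fold change was -1.54 (SE 0.54, adjusted p = 0.0624, edgeR, between 0.0365 and 0.178 over its alternatives). Irf9, the DNA-binding partner of STAT2, had 3.20 and 4.21 CPM in db/db and 4.54, 5.72 and 4.33 in db/+ (-0.40, SE 0.25, adjusted p = 0.243, edgeR).

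Among the sensors of viral RNA, Ddx58, which encodes RIG-I, rose to 20.8 and 26.1 CPM in db/db from 9.70, 13.6 and 11.7 in db/+. Its log2 fold change was 1.00 (SE 0.19, adjusted p = 0.00747, edgeR), and it was called in all 12 alternative fits. Ifih1, which encodes MDA5, lay above db/+ in both db/db libraries, at 9.36 and 9.32 CPM against 5.92 to 7.82, but was not called (log2 fold change 0.45, adjusted p = 0.0917, edgeR). Zbp1 had at most 1 count per library.

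Of 13 tested antiviral effectors and regulators, 3 fell and none rose, where 18.0% of all genes were called lower and 19.9% higher. Oasl2, a member of the 2′-5′ oligoadenylate synthetase family, had 0.763 and 0.860 CPM in db/db and 4.67, 4.16 and 4.85 in db/+, without overlap. Its log2 fold change was -2.49 (SE 0.28, adjusted p = 0.00144, edgeR), and it was called in all 12 alternative fits. Oas1a, a synthetase that activates RNase L, had 0.616 and 0.119 CPM in db/db, or 21 and 5 counts, and 1.96, 2.22 and 2.67 CPM in db/+ (log2 fold change -2.67, SE 0.68, adjusted p = 0.0228, edgeR). Its call was lost without db/db mouse 2 (adjusted p = 0.0551) and without db/+ mouse 2 (0.0534), in edgeR fits that pooled the spread of all groups and so took a lone library to vary like the others. Parp14, a mono-ADP-ribosyltransferase, had 4.46 and 3.85 CPM in db/db and 5.73, 9.48 and 8.17 in db/+ (-0.92, SE 0.26, adjusted p = 0.0302, edgeR). That call was lost without db/db mouse 1 (adjusted p = 0.0509), db/db mouse 2 (0.103), db/+ mouse 2 (0.0674) or db/+ mouse 3 (0.0513) in the same fits. Usp18, which removes ISG15 from proteins and dampens the receptor, had 31.5 and 15.9 CPM in db/db and 17.9, 14.8 and 17.8 in db/+ (0.48, SE 0.28, adjusted p = 0.216, edgeR). The db/db value of 31.5 stood above all others. The fold change turned to -0.085 without that library (db/db mouse 1) and was called at 0.90 without db/db mouse 2 (adjusted p = 0.0108, up to 0.763 over its alternatives). The other 9 tested effectors and regulators (Ifit1, Ifit3, Rsad2, Xaf1, Rtp4, Trim25, Ifi27, Ifi35 and Bst2) were not called by the main edgeR fit. DESeq2 called Ifit3 and Rtp4 lower, and edgeR called Ifit3 without a filter on low counts and with mouse number as a block. Ifit1 and Ifit3, which encode RNA-binding inhibitors of viral translation, had 0.998 and 0.812 CPM and 0.0587 and 0.263 CPM in db/db, against 1.42 to 2.77 and 0.312 to 2.52 in db/+. Neither overlapped between the groups, and their adjusted p was 0.0802 and 0.0684 in edgeR. Ifit2 had 3 and 6 counts in KO_db/db, 0 in db/db and 3, 0 and 0 in db/+, and was tested in no comparison.

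Among the interferon-induced GTPases, Gbp2, Gbp3 and Iigp1 averaged under 1 CPM, while Irgm1 averaged over 10 CPM. Gbp3, a guanylate-binding protein, had 2 and 1 counts in db/db and 21, 28 and 8 in db/+. The summed counts gave a level 17.9 times lower in db/db, with a 95% exact counting interval of 5.81 to 89.2 that covers counting error only. edgeR called Gbp3 lower (adjusted p = 0.0190), and lost the call without db/db mouse 1 (adjusted p = 0.108), db/db mouse 2 (0.177), db/+ mouse 1 (0.0803) or db/+ mouse 2 (0.0886). Iigp1, an immunity-related GTPase, had 14 and 14 counts in db/db and 1, 2 and 0 in db/+, a ratio of 9.92 (95% exact counting interval 3.07 to 51.0). Its call as higher (adjusted p = 0.0464, edgeR) was lost in DESeq2 and in all 5 fits that left out a library, with adjusted p between 0.0440 and 0.178 over its alternatives. Igtp, Irgm1, Gbp2 and Gbp7 were not called. Isg15, the ubiquitin-like modifier, had 1 to 8 counts per library and Cxcl10, a T cell attractant, 0 to 10, and neither was tested in any comparison.

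**Figure D3:**
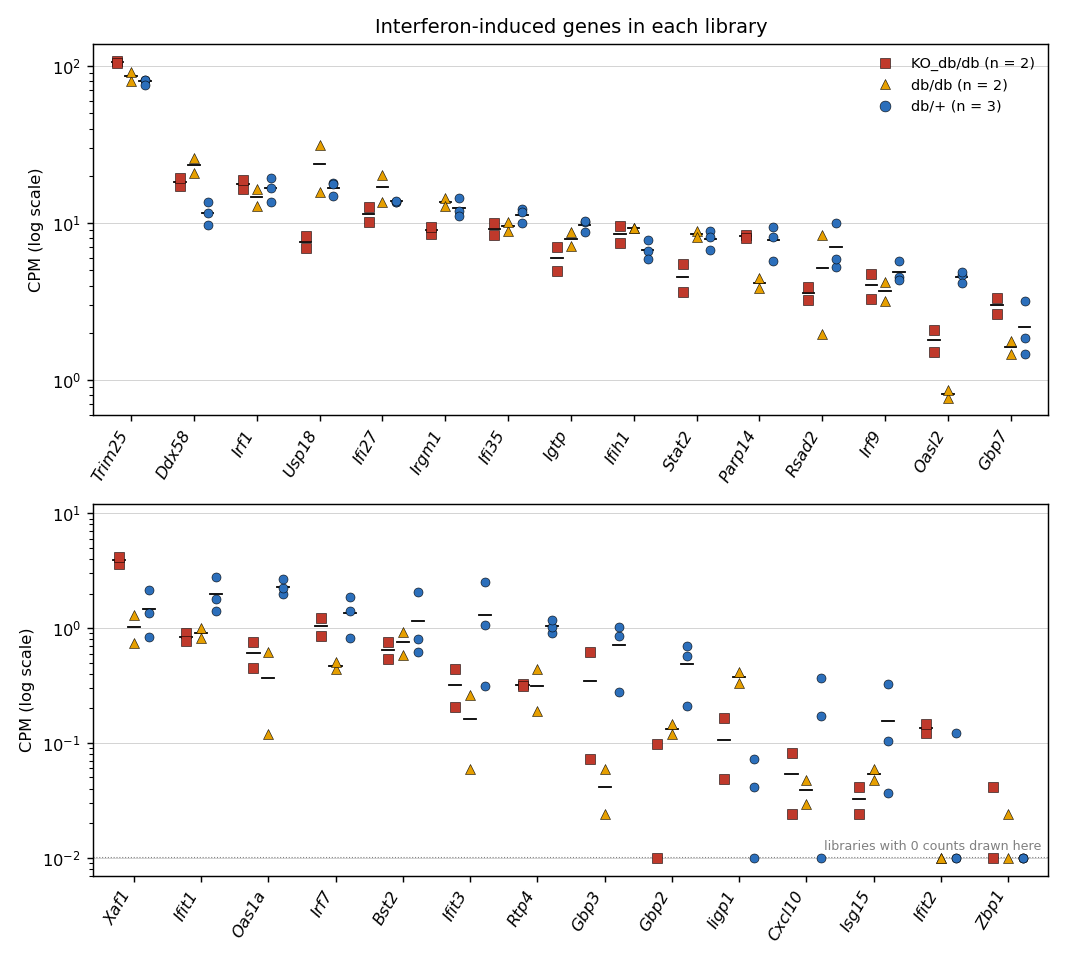
Levels of the 29 interferon-induced genes in CPM on a log scale, ordered by mean, with 1 point per library and a line at the mean of a group with counts in every library. Libraries at 0 are drawn on the dotted line. Oasl2 and Oas1a were highest in the 3 db/+ libraries, Ddx58 was lowest in them, Usp18 was lowest in the KO_db/db libraries and Xaf1 was highest in them.

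The comparison of KO_db/db with db/db asks what the loss of Aldh1a3 changes in diabetic β-cells. No member passed the threshold among 33 tested, where 0.319% of the 13486 genes tested did. At an unadjusted p under 0.05 there were 13 members (8 of 10 class I and 5 of 23 interferon-induced), against 20.9% of all genes. DESeq2 called 4 members (H2-K1, Usp18, Xaf1 and Parp14), but it called 1396 genes in all. Without a filter on low counts edgeR called 6 members, adding H2-D1 and Psmb9 to these, among 1570 genes called. With all 7 libraries in one fit it called Usp18 alone of the members, among 818 genes called. All 10 tested class I genes had groups that did not overlap, 8 of them above db/db and 2 below. Among interferon-induced genes 6 lay above and 7 below without overlap, and 57.5% of all genes tested did not overlap. The median log2 fold change was 0.46 over class I genes, -0.06 over interferon-induced genes and -0.02 over all genes tested.

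Among the class I genes, B2m had 21.1 and 13.9 CPM in KO_db/db against 11.6 and 10.4 in db/db (log2 fold change 0.67, SE 0.25, adjusted p = 0.219, edgeR). Psmb8 had 9.64 and 8.93 CPM against 5.34 and 6.45 (0.65, SE 0.21, adjusted p = 0.188, edgeR), and Psmb9 had 4.31 and 4.32 against 1.35 and 2.10 (1.31, SE 0.35, adjusted p = 0.149, edgeR). For these 3 genes each KO_db/db library lay between the db/db and the db/+ ranges or within the db/+ range. The heavy chains were the 2 genes below db/db. H2-K1 had 113 and 190 CPM in KO_db/db against 343 and 212 (-0.88, SE 0.34, adjusted p = 0.234, edgeR). H2-D1 had 49.0 and 145 CPM against 369 and 213 (-1.59, SE 0.55, adjusted p = 0.207, edgeR), with adjusted p from 0.00342 to 0.380 over its alternatives. In the 7 alternative fits that kept every library, those without acinar genes included, the log2 fold changes hardly moved. They ran from -0.89 to -0.87 for H2-K1 and from -1.73 to -1.58 for H2-D1. The lower value of both genes was in KO_db/db mouse 1, the library rich in acinar transcripts, and the part of those transcripts was not tested. Without that library the log2 fold changes were -0.55 for H2-K1 and -1.01 for H2-D1 (adjusted p = 0.489 and 0.344, edgeR), and without KO_db/db mouse 2 they were -1.30 and -2.57 (0.0829 and 0.0370). H2-Q2, a heavy chain gene closely related to these, was at 0.205 CPM in that library and between 33.9 and 138 CPM in the others. The sum of 13 heavy chain genes was 262 and 484 CPM in KO_db/db, below both db/db and all db/+ libraries. Tap1 had 8.003 and 8.30 CPM against 6.55 and 7.93 (0.17, SE 0.21, adjusted p = 0.669, edgeR). Per kilobase, H2-K1 and H2-D1 over B2m was 3.88 and 11.7 in KO_db/db, below db/db and overlapping db/+ (exact permutation p = 0.333 against db/db, the smallest that 2 mice against 2 can give).

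Among interferon-induced genes the values were mixed. Usp18 had 6.98 and 8.23 CPM in KO_db/db, below all other libraries (log2 fold change -1.64 against db/db, SE 0.35, adjusted p = 0.116, edgeR, between 0.000314 and 0.197 over its alternatives). Xaf1, a proapoptotic interferon target, had 3.65 and 4.199 CPM against 1.29 and 0.741 (1.95, SE 0.42, adjusted p = 0.114, edgeR, between 0.00522 and 0.222). Parp14 had 8.41 and 8.06 CPM against 4.46 and 3.85 (0.98, SE 0.22, adjusted p = 0.123, edgeR, between 0.0293 and 0.261). Stat2 had 3.61 and 5.49 CPM against 8.95 and 8.15 (-0.91, SE 0.28, adjusted p = 0.172, edgeR), and Irf7 had 0.862 and 1.21 against 0.4403 and 0.502 (1.14, SE 0.55, adjusted p = 0.301, edgeR). The fold changes of Irf1 and Irf9 were 0.26 and 0.11 on the log2 scale, and that of Irf9 turned to -0.18 without KO_db/db mouse 2 and to -0.066 without db/db mouse 1.

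**Figure D4:**
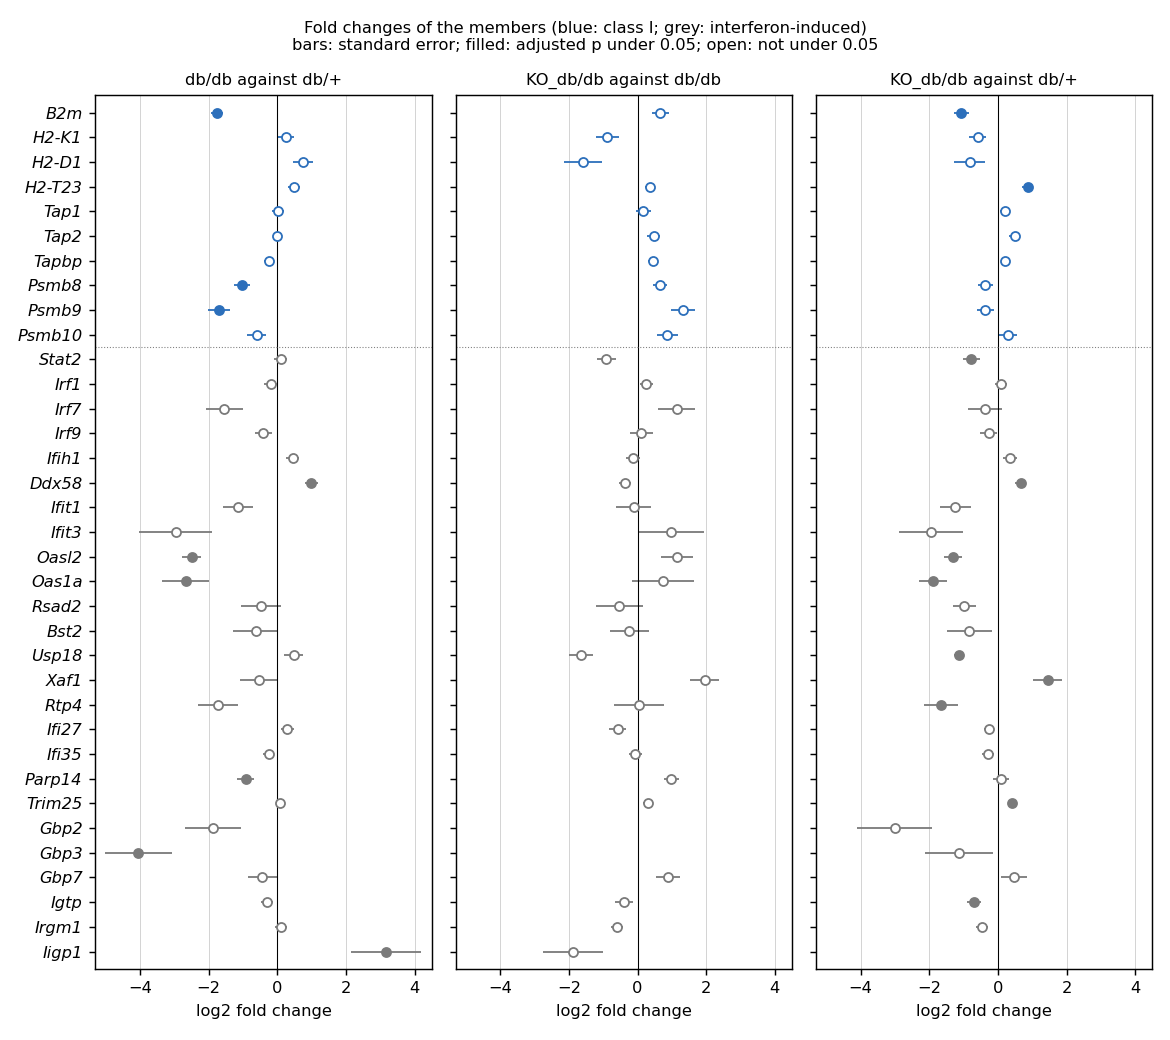
Log2 fold changes with standard errors of the members tested in 3 comparisons, with filled points for an adjusted p under 0.05. B2m, Psmb8 and Psmb9 are filled on the lower side in db/db against db/+ (-1.75, -1.03 and -1.70). No point is filled in KO_db/db against db/db, where H2-K1 and H2-D1 (-0.88 and -1.59) are the class I genes below 0. The comparisons share libraries.

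Relative to lean db/+, 11 of 34 tested members passed the threshold in KO_db/db (4 higher and 7 lower), or 32.4%, where 38.4% of 13228 genes did (20.5% higher and 17.9% lower). This comparison shares the db/+ libraries with that of db/db, and the KO_db/db libraries with the one before. H2-T23, Ddx58, Xaf1 and Trim25 rose, and B2m, Stat2, Oasl2, Oas1a, Usp18, Rtp4 and Igtp fell. Groups did not overlap for 6 members above and 14 below, against 64.1% of all genes. The median log2 fold change was -0.08 over class I genes and -0.58 over interferon-induced genes, where it was 0.00 over all genes tested. Of these 11 genes, H2-T23 alone was called in all 12 alternative fits. DESeq2 called all 11 and also H2-K1, Tap2 and Rsad2. Without KO_db/db mouse 1, the library rich in acinar transcripts, 2 of the 11 calls stayed (B2m and H2-T23), and without KO_db/db mouse 2, 4 stayed.

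H2-T23 had 43.2 and 49.3 CPM in KO_db/db, above every db/+ library, with a log2 fold change of 0.87 (SE 0.16, adjusted p = 0.00799, edgeR). B2m stayed below all db/+ libraries, with a log2 fold change of -1.07 (SE 0.23, adjusted p = 0.0118, edgeR), and without KO_db/db mouse 2 it was -0.80 (adjusted p = 0.0512 in the fit that pooled 3 groups). Psmb8 and Psmb9, lower in db/db, were not called here (-0.36 and -0.36, adjusted p = 0.206 and 0.293, edgeR), and their KO_db/db values lay close to or within the db/+ range. H2-K1, H2-D1 and Tap1 had fold changes of -0.59, -0.82 and 0.21 on the log2 scale, with adjusted p of 0.104, 0.190 and 0.309 in edgeR. H2-K1 was called lower by DESeq2 (-0.58, adjusted p = 0.0312) and by edgeR without a filter on low counts (-0.60, adjusted p = 0.0372). Without KO_db/db mouse 1 the log2 fold changes were -0.27 for H2-K1 and -0.25 for H2-D1 (adjusted p = 0.590 and 0.701, edgeR), and without KO_db/db mouse 2 they were -1.03 and -1.82 (0.0681 and 0.0285).

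Oasl2 had 1.52 and 2.09 CPM in KO_db/db, between the ranges of db/db and db/+ (log2 fold change -1.32 against db/+, SE 0.26, adjusted p = 0.00971, edgeR), and without KO_db/db mouse 1 it was not called (adjusted p = 0.0726). Usp18 fell by 1.14 on the log2 scale (SE 0.16, adjusted p = 0.00292, edgeR), with the call lost without KO_db/db mouse 1 (adjusted p = 0.118), KO_db/db mouse 2 (0.0626) or db/+ mouse 1 (0.0571). Oas1a had 0.452 and 0.752 CPM, 11 and 31 counts (-1.89, SE 0.42, adjusted p = 0.0138, edgeR). Rtp4, a small interferon-induced transmembrane chaperone, had 0.328 and 0.316 CPM, 8 and 13 counts, against 0.900, 1.02 and 1.18 in db/+ (-1.67, SE 0.49, adjusted p = 0.0365, edgeR). The calls of Oas1a and of Rtp4 were already lost with all 7 libraries in one fit (adjusted p = 0.0600 and 0.0637, edgeR). Rtp4 also lost its call without the count filter (0.0810) and with mouse number as a block (0.117). Neither gene was called in the joint fits that left out 1 of the 5 libraries. Their log2 fold changes there ran from -2.34 to -1.60 and from -1.76 to -1.57. Xaf1 rose by 1.45 (SE 0.41, adjusted p = 0.0323, edgeR), and its call held only without db/+ mouse 1 among the fits that left out a library, the other adjusted p running from 0.0915 to 0.156. Ddx58 rose by 0.66 (SE 0.17, adjusted p = 0.0221, edgeR), and the call ended without KO_db/db mouse 1 (0.0717) or 2 (0.130) and without db/+ mouse 1 (0.0764) or 3 (0.0608). Trim25, a ubiquitin ligase that activates RIG-I, rose by 0.41 (SE 0.08, adjusted p = 0.00992, edgeR), from 76.0 to 82.1 CPM in db/+ to 108.0 and 103.9 CPM, and its call held only without db/+ mouse 3 (adjusted p up to 0.108 in the others). Stat2 fell by 0.78 (SE 0.24, adjusted p = 0.0432, edgeR) and was not called without KO_db/db mouse 1 (0.195), db/+ mouse 2 (0.104) or db/+ mouse 3 (0.0747). Igtp, an immunity-related GTPase, fell by 0.68 (SE 0.20, adjusted p = 0.0365, edgeR) and was called only without KO_db/db mouse 2 among these fits, the highest adjusted p being 0.211. Irf1, Irf7 and Irf9 were not called (0.09, -0.38 and -0.27, adjusted p = 0.703, 0.570 and 0.437, edgeR).

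By group of genes, 3 of 10 class I genes and 6 of 25 interferon-induced genes were called between db/db and db/+, and 2 of 10 and 9 of 24 between KO_db/db and db/+, where 37.8% and 38.4% of all genes were called. Neither group had a larger share called than all genes had, in either comparison. Summed over their genes, the interferon-induced group held 221 to 240 CPM in all 7 libraries. Abundant genes weigh most in that sum, as 7 of the 29 averaged 10 to 100 CPM and 10 averaged under 1 CPM. The median log2 CPM of the 29 genes, with a small offset for genes at 0, was 0.84 and 0.52 in db/db. It was 1.42, 1.71 and 1.88 in db/+ and 1.65 and 1.95 in KO_db/db. The class I group held 415 and 583 CPM in KO_db/db, 882 and 616 in db/db and 739, 587 and 549 in db/+. Most of it came from H2-K1 and H2-D1, except in KO_db/db mouse 1.

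The ligands of the pathway were not detected. Of 19 interferon genes, 18 had 0 counts in all 7 libraries, which allows up to 0.0717 to 0.123 CPM per gene, and Ifna16 had 1 count in 1 db/db library. Of 15 tested receptor, kinase and signal regulator genes, the test called 3 above db/+ in db/db (Ifnar2, Jak2 and Socs3). It called 3 below, among them the kinase genes Jak1 and Tyk2, where 37.8% of all genes were called. Ifnar2, a chain of the type I receptor, had 33.7 and 37.8 CPM in db/db and 14.5, 12.8 and 17.8 in db/+, without overlap (log2 fold change 1.24, SE 0.17, adjusted p = 0.00242, edgeR), and was called in all 12 alternative fits. It had 14.7 and 21.6 CPM in KO_db/db (-0.98 against db/db, adjusted p = 0.123, edgeR, between 0.00428 and 0.233 over its alternatives). Ifnar1, the other chain, had 15.6 to 18.5 CPM in all libraries, and its fold change was 0.09. Ifngr1 and Ifngr2, the receptor of interferon-γ, had fold changes of 0.30 and 0.40 and were not called.

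Socs3, a feedback inhibitor of JAK signalling, rose by 1.02 in db/db (SE 0.29, adjusted p = 0.0317, edgeR), with the call lost without db/db mouse 1 (0.113) or 2 (0.0648) and without db/+ mouse 1 (0.0857) or 2 (0.0781). Of 10 tested genes of nucleic acid sensing 1 rose and 1 fell in db/db, and 1 rose (Traf3) and 3 fell (Mavs, Tbk1 and Irf3) in KO_db/db relative to db/+, where 37.8% and 38.4% of all genes were called. Traf3, an adaptor of the antiviral kinases, rose by 1.30 in db/db (SE 0.14, adjusted p = 0.00118, edgeR) and by 1.05 in KO_db/db (adjusted p = 0.00146, edgeR), in all 12 alternative fits of each. Myd88, the adaptor of Toll-like receptors, fell by 0.68 (SE 0.20, adjusted p = 0.0350, edgeR), with the call lost without either db/db library (0.151 and 0.109), db/+ mouse 1 (0.0887) or db/+ mouse 2 (0.124).

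Of 62 other interferon-induced genes 37 were tested in db/db against db/+, and 6 rose and 13 fell, with a median log2 fold change of -0.41, where 19.9% of all genes were called higher and 18.0% lower. Between KO_db/db and db/+ 5 rose and 8 fell of 36, with a median of -0.05, where 20.5% of all genes were called higher and 17.9% lower. The called genes with the largest changes were Trim34a (-3.69), Gbp6 (-3.68) and Ifit3b (-3.53). Gbp6, a guanylate-binding protein, had 0.147 and 0.0717 CPM in db/db and 0.982, 1.75 and 1.49 in db/+ (SE 0.64, adjusted p = 0.00593, edgeR). Its call held in all 12 alternative fits. Trim34a lost its call without db/db mouse 1 (0.0746) or 2 (0.0669), and Ifit3b without db/db mouse 1 (0.109) or db/+ mouse 2 (0.0729), and both have close relatives with which reads may be shared.

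Other class I genes gave 1 higher and 4 lower among 20 tested in db/db, and 1 higher and 1 lower among 20 in KO_db/db, relative to db/+. Of all genes 37.8% and 38.4% were called in these comparisons. Psme1 and Psme2, the PA28 cap that interferon-γ induces on the proteasome, fell in db/db with Psmb8 and Psmb9. Psme1 had 16.1 and 19.5 CPM in db/db and 31.8, 32.4 and 24.9 in db/+ (log2 fold change -0.75, SE 0.17, adjusted p = 0.0139, edgeR), and without db/db mouse 1 it was -0.61 (0.0559). Psme2 had 25.7 and 28.4 CPM against 43.3, 44.0 and 41.5 (-0.68, SE 0.11, adjusted p = 0.00437, edgeR, called in all 12 alternative fits). Neither overlapped between the groups. Hfe, a class I-like protein that pairs with β2-microglobulin and controls iron uptake, fell by 0.87 (SE 0.16, adjusted p = 0.00690, edgeR), and without db/db mouse 2 by 0.80 (0.0601). Of 28 other subunits of the 20S core and 19S cap, 4 were higher and 2 lower in db/db (37.8% of all genes were called), among them Psmd3 (0.70), Psmd12 (0.51) and Psmc5 (-0.46), and their median was -0.10. In KO_db/db relative to db/+ 4 were higher and 6 lower (38.4% of all genes were called). No class II gene was called among 6 tested by edgeR or DESeq2, and none had an unadjusted p under 0.05. Between KO_db/db and db/db edgeR called no gene in these pathway lists, with an unadjusted p under 0.05 for 5 of 15 receptor and kinase genes, 1 of 10 sensing genes, 8 of 34 other interferon-induced genes, 1 of 20 other class I genes, 1 of 28 subunits of the 20S and 19S particles and no standard or class II gene, where 20.9% of all genes had such a p. DESeq2 called 3 receptor and kinase genes there (Ifnar2, Jak1 and Stat3) and 3 other interferon-induced genes (Ifitm3, Lgals3bp and Tor3a), among 1396 genes called in all.

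Immune cells carry many of these transcripts, so their markers were read in the same libraries. Ptprc, the pan-leukocyte antigen CD45, was at 0.147 CPM or less everywhere. Of 12 T and NK cell markers 6 were at 0 in all libraries (Cd3g, Cd8b1, Ncr1, Nkg7, Gzmb and Prf1), and the list summed to 0.287 to 0.437 CPM in KO_db/db, 0.147 to 0.335 in db/db and 0.246 to 0.547 in db/+. The 7 dendritic cell markers, with Cd209a at 0, summed to 0.680 to 0.985 CPM in KO_db/db, 0.293 to 0.573 in db/db and 0 to 0.182 in db/+. The 5 B cell markers summed to 0.328 to 0.849, 0.764 to 0.910 and 0.474 to 0.532 CPM in the same order of groups. The 7 pan-leukocyte markers summed to 1.64 to 2.65 CPM in KO_db/db, 2.06 to 3.14 in db/db and 4.92 to 6.16 in db/+, but without Fcer1g to 0.780 to 1.14, 1.43 to 2.11 and 0.415 to 0.802. Fcer1g, at 4.12 to 5.75 CPM in db/+ and 0.621 to 1.505 CPM elsewhere, moved with B2m and Oasl2, and its part in these results was not tested. The 12 macrophage markers summed to 22.7 to 34.5 CPM in KO_db/db, 57.0 to 76.1 in db/db and 33.3 to 57.7 in db/+, nearly all of it from C1qa, and the other 11 summed to 1.85 to 2.43, 3.56 to 4.81 and 1.46 to 3.11 CPM. In db/db against db/+ edgeR called 2 of 7 tested macrophage markers higher (C1qb and C1qc) and 0 lower, and Fcer1g lower, where 37.8% of all genes were called. DESeq2 called C1qc alone of the macrophage markers. Zbtb46, the 1 dendritic cell marker tested in KO_db/db against db/+, was called higher there.

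Of the β-cell markers, 10 of 11 fell in db/db against db/+, and the list took 24.9% to 27.1% of the counts in db/db, 26.0% to 26.4% in KO_db/db and 34.4% to 38.8% in db/+. The 3 δ-cell markers summed to 87.2 to 169 CPM in db/db, 517 to 652 in KO_db/db and 381 to 2329 in db/+. They were thus lower in db/db than in either other group, as were Psmb8 and Psmb9. The 6 ductal markers summed to 282 to 346 CPM in KO_db/db, 290 to 432 in db/db and 186 to 202 in db/+, the 5 α-cell markers to 368 to 1196 CPM over all libraries and the 8 stellate cell markers to at most 4.42 CPM. The 8 endothelial markers summed to 13.0 to 51.8 CPM in db/+, 20.1 to 25.1 in db/db and 15.1 to 15.5 in KO_db/db, and the 51.8 was db/+ mouse 3, through Pecam1. The part of these cells in the results was not tested. With the acinar genes left out of the counts, the same 9 members were called between db/db and db/+, and 12 were called between KO_db/db and db/+, all 11 and Tap2.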

How the data were processed

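Poly-A RNA libraries of sorted β-cells were analysed from 7 mice (2 KO_db/db, 2 db/db and 3 db/+), grouped by the labels, which name the genotype and the mouse. Per the labels, the authors used bcl2fastq 2.19 and kallisto 0.44.0 on GRCm38. The deposited values are estimated counts per gene symbol, as whole numbers without normalization. The annotation release and the gate of this sort are not given in the sources used here. kallisto divides ambiguous reads among transcripts, so counts of near-identical genes (class I heavy chains, Oas, Gbp and Ifit families) are uncertain. Total counts per library ran from 27496645 to 35852785, and replicates differed by more than sampling noise.

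Fold changes came from edgeR 4.0.16 in R 4.3.3 (filterByExpr with a minimum count of 10, TMM, quasi-likelihood test, Benjamini-Hochberg adjustment over all genes tested, threshold 0.05), with each pair of groups fitted on its own libraries. The fit was tested on simulated data with known fold changes. Standard errors were derived from the log2 fold change and its F statistic. Ratios were compared by exact two-sided permutation tests over mice. Gene coordinates and transcript lengths came from GENCODE M21, to which all 40 genes matched.

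The 40 genes, the pathway and marker lists and the tests were chosen with earlier results of these data known. Named with values were B2m, H2-K1, H2-D1, Tap1, Psmb8, Psmb9, Nlrc5, Stat2, Irf1, Irf7, Irf9, Isg15 and Cxcl10, up to 5 called genes with the largest changes in each group of genes and comparison, up to 3 called genes of each pathway list, and a few genes where a sentence needed them. A gene of the receptor and signal regulator list is not reported here. Parp14, Trim25, Igtp and other called genes beyond these were named because the number of called members is small, after their values were seen. Fcer1g, C1qa, C1qb, C1qc, Zbtb46, Pecam1 and H2-Q2 were also named after their values were seen. The alternatives were RLE scaling, DESeq2 1.42.0, a joint fit of the 7 libraries, the test without the count filter, a block for mouse number, TMM without acinar genes, acinar genes left out, a threshold of 0.01, and leaving out each library in a fit of the remaining libraries of all groups.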

Additional observations from a re-analysis of the deposited data

How the results depend on the processing

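With an adjusted p under 0.01, 2479 genes and 4 members were called in db/db against db/+, 2394 genes and 4 members in KO_db/db against db/+, and 0 genes in KO_db/db against db/db, where the threshold of 0.05 gave 43 genes and 0 members. In KO_db/db against db/db DESeq2 called 1396 genes and 4 members, edgeR without a filter on low counts 1570 genes and 6 members, and all 7 libraries in one fit 818 genes and 1 member, and the cause was not tested. Leaving out 1 library gave 68 to 1537 genes and 0 to 3 members there, the most without db/db mouse 2. It gave 1991 to 3903 genes and 2 to 6 members in KO_db/db against db/+, the fewest without KO_db/db mouse 1, and 6 to 8 members in db/db against db/+. Between KO_db/db and db/+, the median of interferon-induced genes ran from -0.65 to -0.28 (log2) in these fits, the latter without db/+ mouse 2. Fold changes that turned with 1 library left out ran from -0.11 to 0.58 for H2-K1, -0.085 to 0.90 for Usp18 and -0.12 to 0.16 for Tap1 in db/db against db/+, from -0.18 to 0.35 for Irf9, -0.016 to 2.31 for Oas1a and -0.45 to 0.73 for Rtp4 in KO_db/db against db/db, and from -0.039 to 0.21 for Irf1 and -0.10 to 0.24 for Parp14 in KO_db/db against db/+.

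The mouse numbers in the labels share no stated litter or day. The deviations of same-numbered libraries from their group means correlated between -0.10 and 0.08. With 2 libraries in a group these deviations mirror each other, so the correlations cannot decide whether same-numbered mice shared a litter or day. With the mouse number as a replicate block, 9 members (7 of them called without it) and 4516 genes were called in db/db against db/+, 8 members (7 of them called without it) and 3786 genes in KO_db/db against db/+, and 0 members and 22 genes in KO_db/db against db/db. Other scalings moved the median of all genes by at most 0.0143 (log2). With 2 mice in each of 2 groups, fold changes of genes with a few counts are known only within wide limits, and p-values measure only the spread between these libraries.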

Other observations

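Of the genes whose products act in the attachment of ISG15 to proteins, Uba7, Herc6 and Ube2l6 fell in db/db against db/+. They were chosen after their values were seen, and no list was tested. Trim25, which is also described as a ligase of ISG15, did not pass the test there (log2 fold change 0.09, adjusted p = 0.529, edgeR), and Isg15 itself had 1 to 8 counts per library. Uba7, the activating enzyme, had 0.528 and 0.239 CPM in db/db, 1.64 and 0.704 in KO_db/db and 3.19, 4.16 and 3.29 in db/+ (log2 fold change of db/db against db/+ -3.23, SE 0.45, adjusted p = 0.00266, edgeR). Herc6, a ligase of ISG15, had 2.61 and 2.94 CPM in db/db, 3.12 and 4.15 in KO_db/db and 5.81, 8.13 and 6.23 in db/+ (-1.29, SE 0.24, adjusted p = 0.00722, edgeR). Both were called in all 12 alternative fits. Ube2l6, the conjugating enzyme, had 4.70 and 6.14 CPM in db/db, 6.53 and 6.43 in KO_db/db and 9.86, 11.5 and 7.27 in db/+ (-0.83, SE 0.25, adjusted p = 0.0393, edgeR). Its call was lost without db/db mouse 1 (adjusted p = 0.140), db/+ mouse 1 (0.0785) or db/+ mouse 2 (0.0938). Uba7, Herc6 and Ube2l6 had both db/db libraries below every db/+ library, where 63.3% of all genes tested had groups that did not overlap.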
